A study of Mus musculus with 20 samples.

Results

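The genes described here encode the subunits and partners of the NADPH oxidases. The 9 members, Nox4, Nox1, Cybb, Cyba, Ncf1, Ncf4, Noxo1, Noxa1 and Poldip2, were picked by symbol and role, and each symbol matched 1 Ensembl identifier among the 55573 genes of the count table. Of these genes 33860, and all 9 members, had a nonzero value in at least 1 library. Messenger RNA was sequenced in 20 libraries of mouse induced pluripotent stem cell (iPSC) lines and of the embryoid body (EB) cultures grown from them. iPSCs are body cells returned to a pluripotent state, and an EB is a free-floating cluster of pluripotent cells that starts to form the cell types of the embryo. There were 2 wild type lines, WT#1-4 and WT#20D-17, and 2 lines that lack Nox4, Nox4-/- #5-8 and Nox4-/- #5-23, each with 1 library on day 0, 3, 5, 7 and 14. The study describes WT#1-4 and both Nox4-/- lines as derived from mouse embryonic fibroblasts of wild type or Nox4-/- mice by virally delivered Oct4, Sox2, Klf4 and c-Myc, which those lines therefore share. It does not describe WT#20D-17, which only the sample labels give as wild type. All lines were kept with LIF on feeder cells, aggregated in hanging drops without LIF and then plated on gelatin. Each genotype thus rests on 2 lines, and days of a line are not independent cultures of a genotype.

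NADPH oxidases move electrons from NADPH across a membrane onto oxygen and so make superoxide or hydrogen peroxide. The catalytic subunits are Nox1, Cybb (the phagocyte oxidase, also called Nox2), Nox3, Nox4, Duox1 and Duox2. Nox1 to Nox4 are held in the membrane together with the subunit encoded by Cyba (p22phox). Cybb and Nox1 need further subunits from the cytosol, among them Ncf1, Ncf4 and a Rac GTPase for Cybb and Noxo1, Noxa1 and Rac1 for Nox1. Nox4 is active without these cytosolic subunits. Its partners are therefore Cyba, which it requires, and Poldip2, a protein that binds the Cyba product and raises the activity of Nox4. The libraries were used to ask whether these partners were present with and without Nox4, and whether another oxidase was higher where Nox4 was lost.

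Counts are RSEM expected counts rounded to whole numbers, and CPM are counts scaled to a common library size with TMM factors over the 20 libraries. Total counts per library lay between 20294968 and 27708023, so that a floor of 3 counts corresponded to 0.108 to 0.148 CPM before TMM scaling. The labelled cell state was checked with markers. On day 0 WT#20D-17 had 9335 counts of Nanog, 1016 of Zfp42 and 3003 of Esrrb, all genes of the pluripotent state. The other 3 lines had 1 to 9 counts of Nanog, 0 of Zfp42 and at most 1 of Esrrb on that day, although Pou5f1 (Oct4) had 77182 to 151651 counts. The counts do not tell endogenous Pou5f1 or Sox2 from the viral genes. Sox2 had 21 to 885 counts over the days in WT#1-4 and 133 to 4767 in WT#20D-17. It had 1841 to 3866 in Nox4-/- #5-8 and 3753 to 5438 in Nox4-/- #5-23. Utf1, Dppa5a and Tdgf1 reached 7577, 21962 and 16316 counts in WT#20D-17 and 224, 56 and 219 in WT#1-4. The Nox4-/- lines had at most 1, 36 and 1085. For the lines it describes, the study reports alkaline phosphatase activity and staining for Oct4, Sox2 and SSEA-1. Pluripotency itself was not tested here. Fibroblast and smooth muscle markers also separated the lines. The summed level of the 10 markers had a median over days of 97.7 CPM in WT#1-4, 1054 in WT#20D-17, 31.0 in Nox4-/- #5-8 and 10.4 in Nox4-/- #5-23. WT#20D-17 thus stood apart from the other 3 lines in several of these markers, and the Nox4-/- libraries were compared with each wild type line separately.

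Nox4 (ENSMUSG00000030562, chromosome 7, 87246096 to 87398710, plus strand, GRCm38) was examined first because it is the targeted gene. In WT#1-4 its level was 0.266 CPM on day 0, 0.874 on day 3, 0.783 on day 5, 0.455 on day 7 and 0.149 on day 14, from 3 to 22 counts. In WT#20D-17 the level was 2.62, 7.11, 8.19, 9.01 and 2.94 CPM on the same days, from 56 to 203 counts. In Nox4-/- #5-8 there were 2 counts on day 3 and 1 on day 7, and the remaining 8 Nox4-/- libraries had 0. Every Nox4-/- library lay below every wild type library. Which part of the gene was deleted is not given in the sources used here, so the gene total is the check that these counts allow.

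The Nox4-/- lines had 3 Nox4 counts in all, against 65 in WT#1-4 and 676 in WT#20D-17. At equal depth this was a ratio of 0.0238 (95% exact interval 0.00478 to 0.0726) against WT#1-4 and 0.00205 (0.000422 to 0.00602) against WT#20D-17. These intervals cover counting error only. When the 5 days of a line were pooled, the exact test of edgeR called Nox4 lower in Nox4-/- cells against WT#1-4 (adjusted p = 4.68e-09) and against WT#20D-17 (adjusted p = 1.38e-33). Of all genes tested, 3.97% were called lower in the first comparison and 16.0% in the second. Both use the same 10 Nox4-/- libraries. With the line as the unit, 2 lines against 2, edgeR's quasi-likelihood test gave Nox4 an unadjusted p of 0.0146 and an adjusted p of 0.742. In that comparison 0% of genes were called (2239 had an unadjusted p under 0.05), and DESeq2 called 811 genes, Nox4 among them (adjusted p = 0.000491), while the exact test on the summed counts called 59.

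The wild type lines themselves differed in Nox4. The level was 0.505 ± 0.316 CPM in WT#1-4 and 5.97 ± 2.99 CPM in WT#20D-17 (mean ± SD over 5 days). The lowest WT#20D-17 library lay above the highest WT#1-4 library. The exact test of edgeR gave a log2 difference of 3.53 ± 0.39 (adjusted p = 1.79e-07), and 9.96% of all genes were called higher in WT#20D-17. The SE here and for each comparison between lines of 1 genotype below comes from edgeR's quasi-likelihood fit with the day as a block. The log2 difference and adjusted p come from the exact test, which has no block. For Nox4-/- against a wild type line the SE comes from the quasi-likelihood fit without a block.

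**Figure D1:**
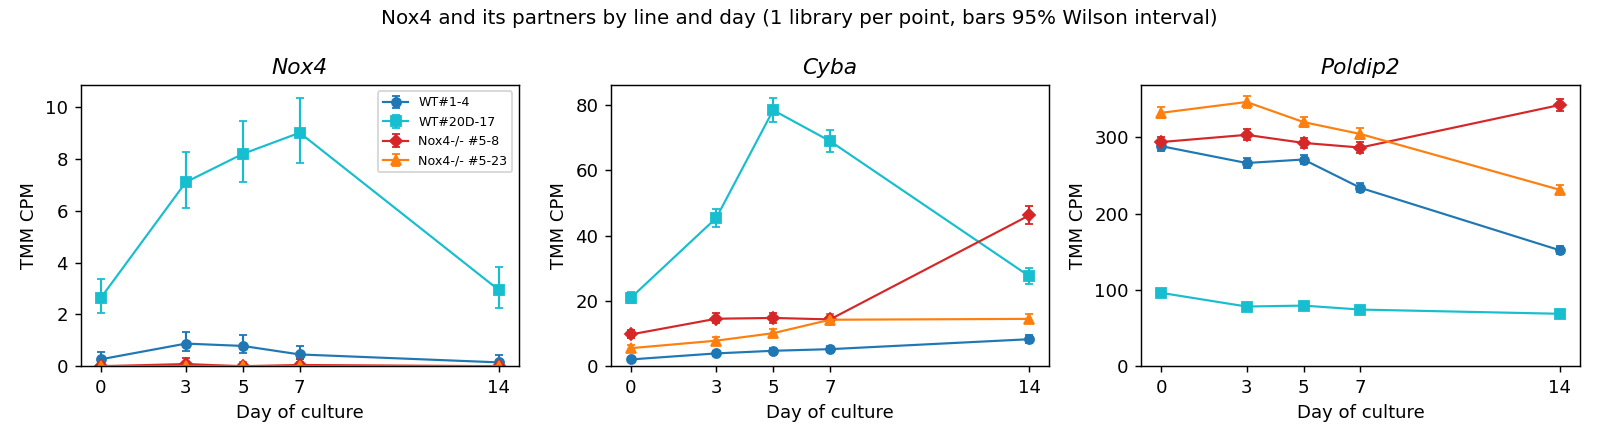
TMM CPM (y axes, linear, from 0) of Nox4, Cyba and Poldip2 by day of culture (x axes) in the 4 lines, with 1 library per point and 95% Wilson intervals of the count as bars. Nox4 is near 0 in both Nox4-/- lines, Cyba is highest in WT#20D-17 on days 0 to 7, and Poldip2 lies between 68.8 and 96.2 CPM in WT#20D-17 and between 152 and 346 CPM in the other 3 lines.

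Over the days, Nox4 was highest on day 3 in WT#1-4, at 3.29 times its day 0 level, and on day 7 in WT#20D-17, at 3.44 times its day 0 level. In both lines the level on day 14 was below those on days 3, 5 and 7. In WT#1-4 these values rest on few counts, and the 95% Wilson interval of day 0 (0.129 to 0.549 CPM) did not reach that of day 3 (0.577 to 1.32 CPM). The quasi-likelihood test of the day course in the wild type lines, with the line as a block, did not call Nox4 (unadjusted p = 0.0293, adjusted p = 0.124). It called 3.78% of the 19240 genes that passed the expression filter. Only 4 members passed that filter, Nox4, Cyba, Noxo1 and Poldip2. None of them was called in the wild type lines or in the Nox4-/- lines (2.30% of genes called). None had a day course called different between genotypes (0.0104% called). Nox4 had 0 to 2 counts per Nox4-/- library and passed the filter only through wild type libraries. Its test in the Nox4-/- lines could therefore not show a day course. Its test between genotypes set the wild type course against counts near 0.

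Cyba (ENSMUSG00000006519, chromosome 8, 122424776 to 122432930, minus strand) encodes the membrane partner of Nox4. Its level in WT#1-4 was 2.09, 3.93, 4.74, 5.23 and 8.28 CPM from day 0 to day 14. WT#20D-17 had 20.98, 45.4, 78.5, 69.0 and 27.6 CPM on these days. Without Nox4 the transcript was still present, at 9.74, 14.6, 14.8, 14.4 and 46.2 CPM in Nox4-/- #5-8 and 5.54, 7.84, 10.1, 14.3 and 14.5 CPM in Nox4-/- #5-23. The Nox4-/- lines therefore fell between the wild type lines. On each of the 5 days both Nox4-/- lines lay above WT#1-4, and both lay below WT#20D-17 except Nox4-/- #5-8 on day 14.

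The direction of the genotype difference in Cyba depended on the wild type line. Against WT#1-4, Cyba was higher in Nox4-/- cells by 1.65 ± 0.44 log2 units (edgeR's exact test, adjusted p = 0.00751), where 1.65% of all genes were called higher. Against WT#20D-17 it was lower, with a log2 difference of -1.67 ± 0.39 (adjusted p = 0.000218). WT#20D-17 exceeded WT#1-4 by 3.30 ± 0.35 log2 units (adjusted p = 2.22e-10), a larger difference than either of the former. With the line as the unit the log2 difference was -0.74 ± 1.07 (adjusted p = 0.808). The call against WT#1-4 was lost with the quasi-likelihood test (adjusted p = 0.0239), with upper quartile factors (0.0117), without Nox4-/- #5-8 (0.0687) and without day 3, 5 or 7 (0.0375, 0.0481 and 0.0618), while the log2 difference stayed between 1.14 and 2.03. The call against WT#20D-17 was lost without Nox4-/- #5-23 (0.0346) and without day 5 or 7 (0.0215 and 0.0132). Between the Nox4-/- lines, the exact test did not call Cyba (log2 difference -0.93 for #5-23 against #5-8, adjusted p = 0.393). The quasi-likelihood test with the day as a block did (-0.79 ± 0.19, adjusted p = 0.00662).

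Poldip2 (ENSMUSG00000001100, chromosome 11, 78512193 to 78522736, plus strand), the other partner, had 288, 266, 271, 234 and 152 CPM from day 0 to day 14 in WT#1-4. In WT#20D-17 the values were 96.2, 78.3, 79.5, 74.3 and 68.8 CPM. In the absence of Nox4 they were 294, 303, 293, 287 and 342 CPM in #5-8 and 332, 346, 320, 304 and 231 CPM in #5-23. All 10 Nox4-/- libraries lay above all 5 of WT#20D-17 and overlapped with those of WT#1-4. Against WT#20D-17 the log2 difference was 1.94 ± 0.15 (exact test of edgeR, adjusted p = 1.76e-27), where 9.83% of all genes were called higher. Against WT#1-4 it was 0.33 ± 0.15 (adjusted p = 0.332). WT#20D-17 was below WT#1-4 by a log2 difference of -1.63 ± 0.16 (adjusted p = 2.17e-09), where 7.78% of genes were called lower. The Nox4-/- lines gave a log2 difference of 0.01 ± 0.13 from each other (adjusted p = 1). No member was called between the Nox4-/- lines, where 1.05% of all genes were higher and 1.14% lower in #5-23.

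Levels of different members were compared per kilobase of the longest coding transcript. In WT#1-4 the means over 5 days were 118 CPM per kb for Poldip2, 6.52 for Cyba, 0.462 for Noxo1, 0.135 for Nox4 and 0.0810 for Nox1. Ncf1 followed at 0.0555, Cybb at 0.0279 and Ncf4 at 0.0103, and Noxa1 was at 0. In WT#20D-17 the order was Cyba at 64.9, Poldip2 at 38.6, Nox4 at 1.59, Noxo1 at 0.690, Ncf1 at 0.110, Nox1 at 0.0906, Noxa1 at 0.0390, Cybb at 0.0286 and Ncf4 at 0.0202 CPM per kb. The ranges over days of neighbours in this order overlapped, except for Poldip2 and Cyba, Cyba and Noxo1, and Noxo1 and Nox4 in WT#1-4 and for Poldip2 and Nox4, and Noxo1 and Ncf1, in WT#20D-17. On day 0 of WT#20D-17, Noxo1 (0.787) was above Nox4 (0.699 CPM per kb). Cyba transcript exceeded Nox4 transcript per kb in each of the 10 wild type libraries. In the Nox4-/- libraries the loss of Nox4 fixes this order.

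The other catalytic subunits were all rare. Nox1 (chromosome X, 134086421 to 134221956, minus strand), an oxidase best known from the colon, had 8, 4, 9, 5 and 1 counts in WT#1-4 and 10, 5, 6, 5 and 1 in WT#20D-17. In Nox4-/- #5-8 it had 6, 8, 0, 3 and 10 counts and in #5-23 it had 5, 3, 6, 2 and 2. The groups overlapped. The level was 0.208 ± 0.115 CPM in WT#1-4, 0.232 ± 0.128 in WT#20D-17, 0.237 ± 0.177 in #5-8 and 0.142 ± 0.065 in #5-23. Nox1 was not called against WT#1-4 (log2 difference -0.16 ± 0.60, edgeR's exact test, adjusted p = 1) or against WT#20D-17 (-0.32 ± 0.61, adjusted p = 0.879). The summed counts gave a ratio of Nox4-/- to wild type of 0.858 (95% exact interval 0.521 to 1.44) and 0.771 (0.468 to 1.29). A rise of the summed level beyond the upper bounds thus lay outside counting error. These sums over lines and days do not bound a rise in 1 line on 1 day. On day 14 there were 10 counts in #5-8, 2 in #5-23 and 1 in each wild type line. The gene overlaps Xkrx on the same strand, and its value had decimals in 17 libraries, so it depends on how reads were divided.

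Cybb (chromosome X, 9435252 to 9487771, minus strand), the catalytic subunit of the phagocyte oxidase, had 0 to 7 counts in WT#1-4 and 0 to 9 in WT#20D-17. It had 0 to 2 counts in Nox4-/- #5-8 and 0 in every library of #5-23. The ratio of summed counts was 0.129 (0.0313 to 0.399) against WT#1-4 and 0.132 (0.0317 to 0.421) against WT#20D-17. The exact test of edgeR did not call it in either comparison (adjusted p = 0.0670 and 0.0864). Among 12 phagocyte markers, Laptm5 was called higher and Lyz2 lower against WT#1-4 (1.65% and 3.97% of all genes). Against WT#20D-17, Laptm5 and Cd14 were called higher and Csf1r, Cd68, Tyrobp and Aif1 lower (9.83% and 16.0% of all genes). Ptprc, the defining leukocyte marker, had at most 9 counts in any library, and Spi1 at most 8. The summed level of the 12 was 19.1 to 67.7 CPM in WT#1-4, 24.6 to 112 in WT#20D-17, 88.7 to 164 in #5-8 and 113 to 138 in #5-23. Laptm5 alone had 60 to 424 counts in the wild type libraries and 1927 to 2979 in the Nox4-/- libraries. Without Laptm5 and Cd68, left out after their values were seen, the sum was 2.05 to 6.87 CPM in WT#1-4, 1.68 to 42.9 in WT#20D-17, 1.51 to 4.78 in #5-8 and 4.16 to 11.2 in #5-23. The part of such cells in the Cybb values was not tested, and in bulk RNA fewer cells of a type cannot be told from less RNA per cell.

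**Figure D2:**
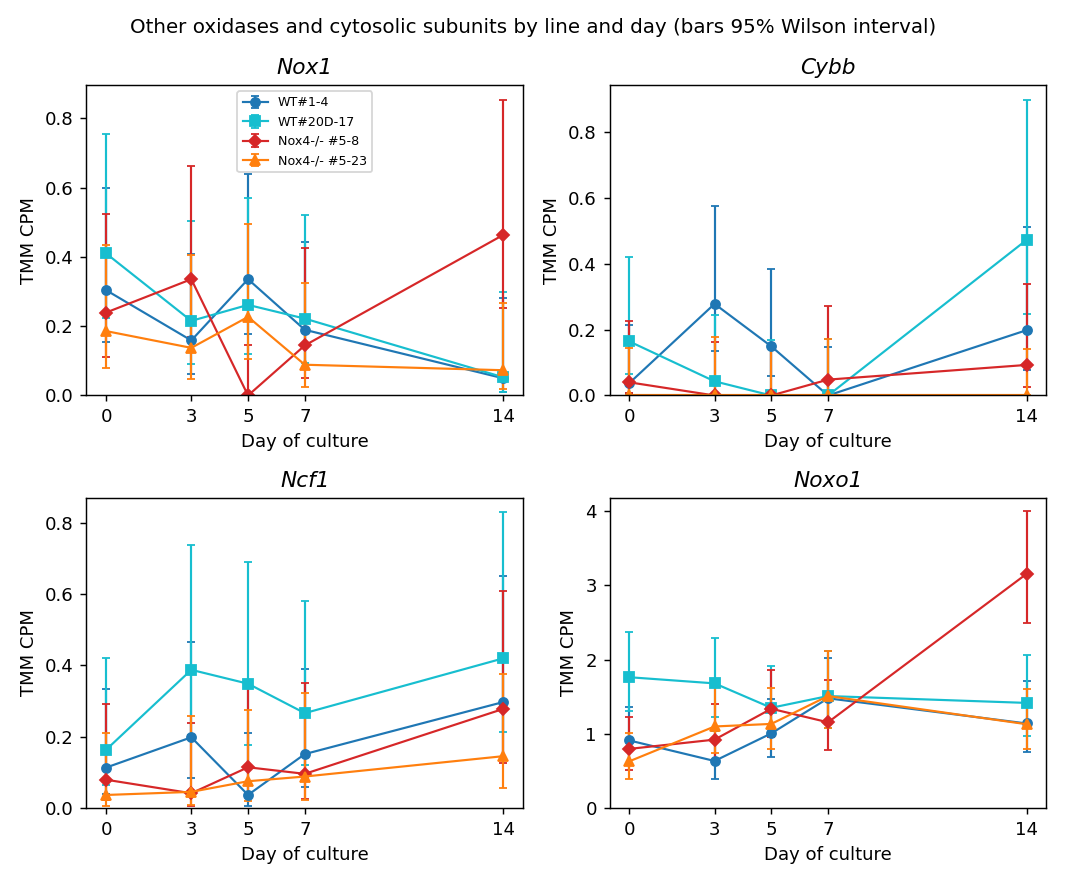
TMM CPM (y axes, linear, from 0) of Nox1, Cybb, Ncf1 and Noxo1 by day of culture (x axes) in the 4 lines, with 1 library per point and 95% Wilson intervals as bars. Nox4-/- and wild type libraries overlap in each panel, although Ncf1 in #5-23 (at most 0.146 CPM) lies below WT#20D-17 (at least 0.164 CPM), and the highest Noxo1 value is 3.15 CPM in Nox4-/- #5-8 on day 14.

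Nox3, Duox1 and Duox2 complete the catalytic family. Nox3, an oxidase of the inner ear, had 1 count in WT#1-4 and 0 in all other lines. Duox1, a dual oxidase with an added peroxidase-like domain, had 3 counts in the Nox4-/- libraries together, 1 in WT#1-4 and 10 in WT#20D-17, and was not called in either comparison. Duox2, its paralogue, had 0 counts in all 10 Nox4-/- libraries. It had 1 count in WT#1-4 and 6, 1, 6, 2 and 16 counts in WT#20D-17, whose mean was at least 1.88-fold higher than the floor of 3 counts per library, taken at the highest of the 20 libraries (0.157 CPM after TMM scaling). Without day 14 it was 1.02-fold, at the floor. Against WT#20D-17 the Nox4-/- cells were called lower (edgeR's exact test, adjusted p = 6.38e-07), and against WT#1-4 there was no call (adjusted p = 1). None of the other 5 oxidases was called higher in Nox4-/- cells in the pooled comparisons or with the line as the unit. At this depth changes within a few counts per library were not detectable.

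The 6 catalytic transcripts were then added per kilobase. The sum was 0.252 ± 0.108 CPM per kb in WT#1-4 and 1.78 ± 0.72 in WT#20D-17 (mean ± SD over days). In the Nox4-/- lines it was 0.111 ± 0.073 in #5-8 and 0.0556 ± 0.0252 in #5-23. Nox4 made up 30.9% to 65.9% of the sum in WT#1-4 and 73.0% to 95.6% in WT#20D-17. Without Nox4 the remaining 5 genes summed to 0.117 ± 0.035 CPM per kb in WT#1-4, 0.185 ± 0.085 in WT#20D-17, 0.104 ± 0.072 in #5-8 and 0.0556 ± 0.0252 in #5-23. The mean of the 5 other oxidases was thus no higher in either Nox4-/- line than in either wild type line, and Nox1 made up most of it in 9 of the 10 Nox4-/- libraries.

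**Figure D3:**
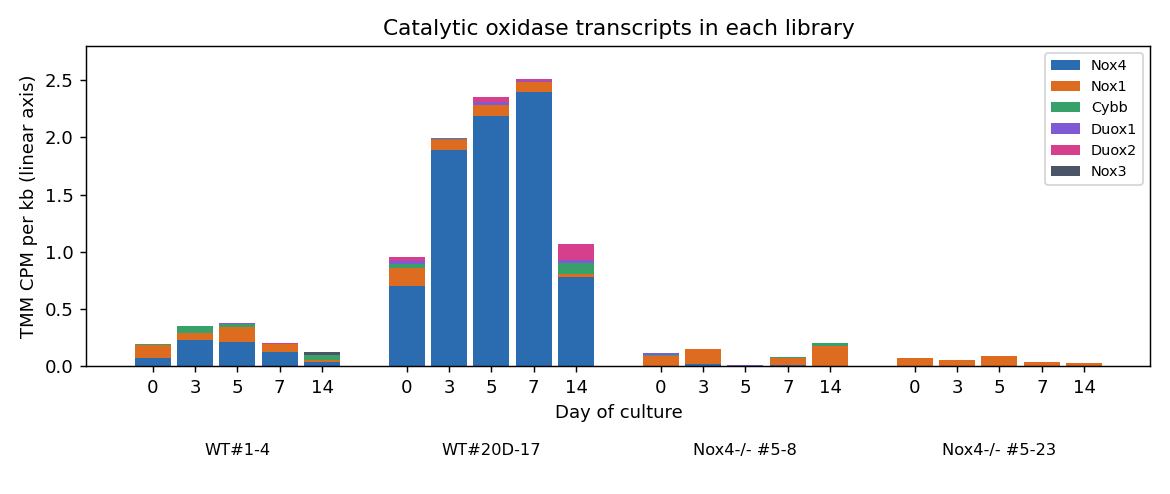
Stacked bars of TMM CPM per kb (y axis, linear, from 0) of the 6 catalytic oxidase transcripts in each of the 20 libraries, by line and day of culture (x axis). Nox4 is the largest share of every WT#20D-17 bar, and the Nox4-/- bars, at most 0.200 CPM per kb, consist mostly of Nox1.

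Among the members that are cytosolic subunits, Noxo1 (chromosome 17, 24696234 to 24700529, plus strand), the organizer of the Nox1 complex, was the most abundant per kb. It had 0.636 to 1.48 CPM in WT#1-4 and 1.35 to 1.76 in WT#20D-17. In the Nox4-/- lines it had 0.798 to 3.15 CPM in #5-8 and 0.632 to 1.51 in #5-23, and the groups overlapped. It was not called against WT#1-4 (log2 difference 0.31 ± 0.38, exact test of edgeR, adjusted p = 0.964) or against WT#20D-17 (-0.27 ± 0.37, adjusted p = 0.720). Noxo1 overlaps Tbl3 on the opposite strand and had values with decimals in 19 libraries. Its activator partner Noxa1 (chromosome 2, 25085667 to 25095149, minus strand) had 0 counts in WT#1-4 and in both Nox4-/- lines. In WT#20D-17 it had 3, 1, 0, 1 and 2 counts. The exact test called this difference (adjusted p = 0.00791), but no library passed the floor of 3 counts, and with the day as a block the adjusted p was 0.0567.

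Ncf1 (chromosome 5, 134220053 to 134229625, minus strand), the organizer of the phagocyte oxidase, had 1 to 6 counts in WT#1-4 and 4 to 9 in WT#20D-17. It had 1 to 6 counts in #5-8 and 1 to 4 in #5-23. Against WT#20D-17 it was called lower without Nox4 (log2 difference -1.61 ± 0.48, edgeR's exact test, adjusted p = 0.00227), but not with the day as a block (adjusted p = 0.0185) nor without Nox4-/- #5-23 (0.0978). Against WT#1-4 the log2 difference was -0.62 ± 0.54 (adjusted p = 0.759). Ncf4 (chromosome 15, 78244801 to 78262580, plus strand), which binds phosphoinositide at the phagosome, had 0 counts in every Nox4-/- library, 2 in WT#1-4 and 3 in WT#20D-17, and was not called. In all, 1 member was called higher and 1 lower of 9 against WT#1-4, and 1 higher and 4 lower against WT#20D-17. Among all genes 1.65% were higher and 3.97% lower in the first comparison, and 9.83% and 16.0% in the second. With the day as a block, 2 of the 4 lower calls, Ncf1 and Noxa1, were lost. The median log2 difference of the 9 was -0.16 against WT#1-4 and -1.67 against WT#20D-17, beside 0 and -0.02 over all genes. Nox4, the targeted gene, is the lower call against WT#1-4 and 1 of the 4 against WT#20D-17. Ncf4 and Noxa1 had 0 counts in every Nox4-/- library and were kept only through wild type counts. They could not be called higher, so the knockout and the choice of genes partly fixed these calls and medians.

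**Figure D4:**
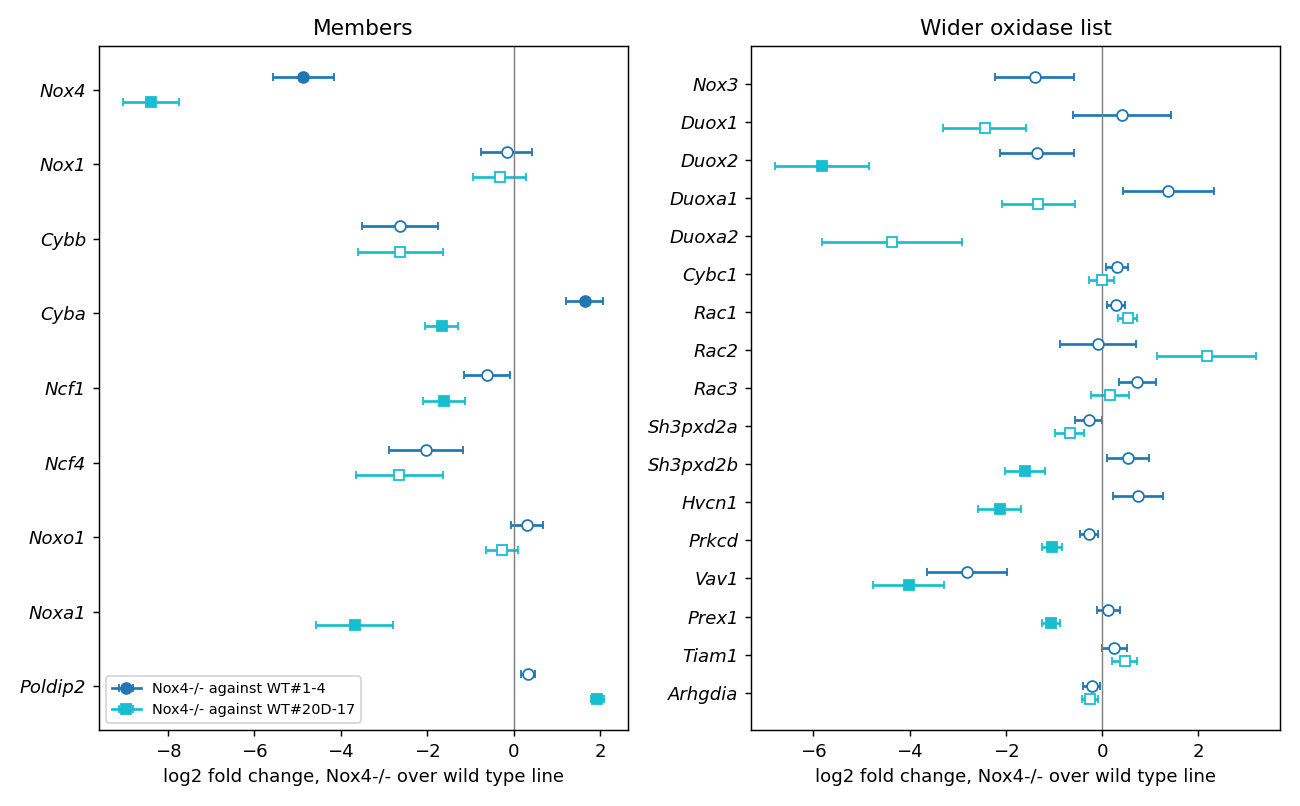
log2 fold change of Nox4-/- libraries over WT#1-4 (circles) and over WT#20D-17 (squares) on the x axes, for the 9 members (left) and 17 further genes of the oxidase pathway (right), with SE as bars and filled symbols for an adjusted p under 0.01. Cyba lies on opposite sides of 0 in the comparisons (1.65 and -1.67). Values of genes with 0 counts in every Nox4-/- library (Ncf4, Noxa1, Nox3, Duox2, Duoxa2) depend on the prior count, and genes with 0 counts in both groups have no symbol.

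A wider list held 17 genes that assemble, activate or support the oxidases. None of them was called against WT#1-4, where 1.65% of all genes were higher and 3.97% lower. Their median log2 difference was 0.13. Against WT#20D-17, 6 were lower and 0 were higher, with 16.0% and 9.83% of all genes called in these directions, and the median was -1.03. The 6 were Duox2, Sh3pxd2b, Hvcn1, Prkcd, Vav1 and Prex1. Of these, 4 (Duox2, Sh3pxd2b, Hvcn1 and Prex1) were also higher in WT#20D-17 than in WT#1-4, where 9.96% of all genes were called higher. Both comparisons use the same WT#20D-17 libraries, which favoured this overlap. Nox3, Duox2 and Duoxa2 had 0 counts in every Nox4-/- library and were kept only through wild type counts. They could not be called higher. Duox1, Duoxa1 and Vav1 had at most 2 counts per Nox4-/- library. The choice of genes thus partly fixed the calls and the median of the list.

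Hvcn1, the voltage-gated proton channel that balances the charge moved by the oxidase, had 36.6 CPM on day 0 of WT#20D-17 and 3.04 on day 14. In the Nox4-/- lines it had 0.929 to 4.70 CPM, which overlapped with WT#20D-17 (log2 difference -2.13 ± 0.44, edgeR's exact test, adjusted p = 2.32e-05). The mean was 1.93 CPM in WT#1-4, below the 3.24 CPM of the Nox4-/- libraries. Hvcn1 overlaps Tctn1 on the opposite strand and had values with decimals in 20 libraries. Sh3pxd2b, an organizer-like scaffold also found in podosomes, had 16.6, 42.7, 83.2, 96.0 and 117 CPM in WT#20D-17. In WT#1-4 the same days gave 34.3, 15.7, 14.9, 11.6 and 4.51 CPM, and both Nox4-/- lines were likewise highest on day 0 and lowest on day 14. Its log2 difference against WT#20D-17 was -1.60 ± 0.41 (adjusted p = 0.000646). Prkcd, a kinase that phosphorylates oxidase subunits, had a log2 difference of -1.03 ± 0.21 (adjusted p = 3.70e-05), and Prex1, an exchange factor for Rac, one of -1.06 ± 0.19 (adjusted p = 2.66e-06). The 10 Nox4-/- libraries all lay below WT#20D-17 for Prex1 but overlapped for Prkcd.

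Rac1, the Rac GTPase used by Nox1, had 255 to 337 CPM in WT#1-4, 184 to 296 in WT#20D-17, 245 to 326 in #5-8 and 368 to 568 in #5-23, and was not called against either wild type line. Rac2, the Rac of blood cells, was rare, with 10 to 42 counts in WT#1-4, 0 to 13 in WT#20D-17, 1 to 68 in #5-8 and 0 to 34 in #5-23. The ratio of its summed counts in Nox4-/- cells was 4.68 (3.12 to 7.30, counting error only) against WT#20D-17 and 0.947 (0.770 to 1.17) against WT#1-4, and it was not called in either comparison (exact test of edgeR, log2 difference 2.18 ± 1.03, adjusted p = 0.140, and -0.08 ± 0.79, adjusted p = 1). Rac3 was higher in #5-8 (9.22 to 21.8 CPM) than in #5-23 (4.05 to 5.75 CPM), with a log2 difference of -1.52 ± 0.19 for #5-23 against #5-8 (exact test of edgeR, adjusted p = 9.72e-05). Cybc1, the chaperone of the Cybb and Cyba pair, changed over days in both genotypes (quasi-likelihood test, adjusted p = 0.00938 in wild type and 0.00604 in Nox4-/- lines). It had 27.8 CPM on day 0 and 53 on day 14 in WT#1-4, 27.3 and 73.6 in WT#20D-17, 29.6 and 77.9 in #5-8, and 28.5 and 65.9 in #5-23. Both calls were lost without the line as a block (0.0703 and 0.0842) and without the expression filter (0.0179 and 0.0200).

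The nearest protein-coding genes with a nonzero count around Nox4 were also read. Ctsc (ENSMUSG00000030560, chromosome 7, 88278085 to 88310888, plus strand) encodes cathepsin C, a lysosomal protease that activates serine proteases, and starts 879375 bases after the end of Nox4. It had 14.2, 11.3, 9.73, 11.1 and 13.2 CPM in WT#1-4 and 83.8, 172, 143, 185 and 73.5 CPM in WT#20D-17. The Nox4-/- lines had 0.881 to 3.61 CPM in #5-8 and 0.311 to 1.33 in #5-23. Every Nox4-/- library lay below every wild type library. The log2 difference was -3.02 ± 0.49 against WT#1-4 (edgeR's exact test, adjusted p = 1.64e-07) and -6.49 ± 0.51 against WT#20D-17 (adjusted p = 1.10e-30). With the line as the unit the adjusted p was 0.742.

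Grm5, a glutamate receptor gene that starts 185458 bases after Nox4, had 39, 65, 16, 16 and 0 counts in WT#1-4, at most 1 in WT#20D-17 and 0 in all Nox4-/- libraries. Averaged over the days of WT#1-4 it stood at least 6.69-fold higher than the floor of 3 counts per library (4.26-fold without day 3), and it was called lower without Nox4 (exact test of edgeR, adjusted p = 8.23e-10). Before Nox4 lie Folh1, a folate hydrolase gene, and Vmn2r79, a vomeronasal receptor gene. They had 3 to 16 and 1 to 19 counts in WT#20D-17, at most 1 in WT#1-4 and 0 in the Nox4-/- libraries. Both were called lower without Nox4 against WT#20D-17 (adjusted p = 3.71e-11 and 9.80e-08), and neither was called against WT#1-4. Tyr, the tyrosinase gene 26061 bases after Nox4, and Vmn2r78 had at most 1 count in any library. Of the 6 neighbours, 2 were thus called lower against WT#1-4 and 3 against WT#20D-17. Among all genes 3.97% and 16.0% were called lower. No neighbour was called higher. However, Folh1, Vmn2r79, Grm5 and Tyr had 0 counts in every Nox4-/- library and were kept only through wild type counts. They could not be called higher, so the choice of genes partly fixed these numbers.

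**Figure D5:**
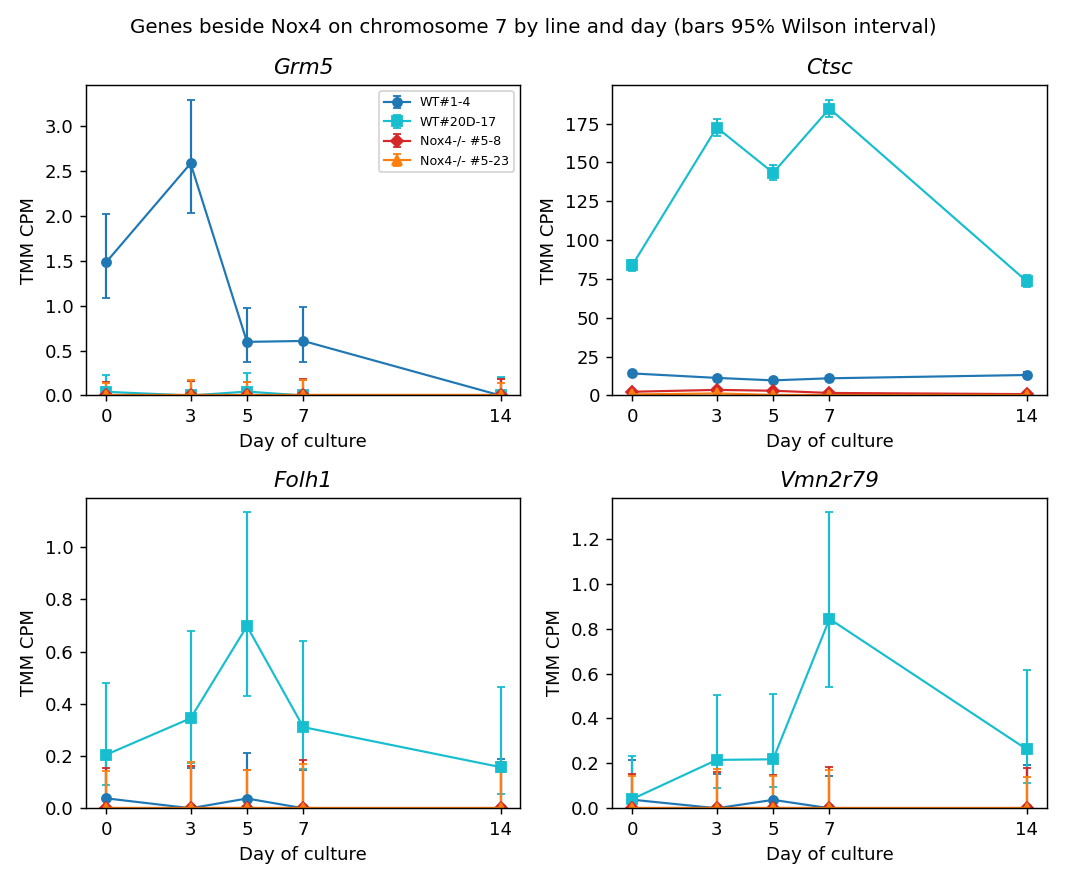
TMM CPM (y axes, linear, from 0) of the genes Grm5, Ctsc, Folh1 and Vmn2r79, which lie beside Nox4 on chromosome 7, by day of culture (x axes) in the 4 lines, with 95% Wilson intervals as bars. Grm5 is seen in WT#1-4, Folh1 and Vmn2r79 in WT#20D-17, and Ctsc in both wild type lines, while the Nox4-/- libraries are at 0 in 3 panels and at most 3.61 CPM for Ctsc.

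The genes whose log2(CPM + 1) followed each member most closely were listed among those with a mean of at least 1 CPM. For Nox4 over the 10 wild type libraries these were the zinc transporter Slc39a8, the transcription factor gene Sox4 and the amino acid transporter Slc7a8, with Pearson r of 0.988, 0.988 and 0.986 among 14814 genes. Their mean CPM in WT#1-4 and WT#20D-17 was 7.90 and 90.6, 27.6 and 90.8, and 1.25 and 63.8. For Cyba over all 20 libraries they were Efna4, Stxbp2 and Tbc1d10a (r of 0.954, 0.938 and 0.920), and for Poldip2 they were Sdr39u1, Retsat and Lrmp (0.988, 0.986 and 0.985) among 14578 genes. These libraries share lines, and Nox4, Cyba and Poldip2 differ between the wild type lines, so the values describe likeness across lines. Most fibroblast and smooth muscle markers differed between lines in the same directions as Nox4 in the pooled comparisons. Thy1 and Dcn were exceptions. The mean of Thy1 was 13.5 CPM in WT#1-4 and 7.09 in WT#20D-17. That of Dcn was 4.26 CPM in WT#1-4, 8.77 in #5-8 and 2.98 in #5-23. Of the 10 markers, 7 were lower in Nox4-/- cells against WT#1-4 (3.97% of all genes) and 8 against WT#20D-17 (16.0%), and 7 were higher in WT#20D-17 than in WT#1-4 (9.96%). Their summed level was 85.1 to 183 CPM in WT#1-4, 45.3 to 3644 in WT#20D-17, 17.6 to 51.3 in #5-8 and 8.57 to 21.8 in #5-23. Within a line the order of the days differed. In WT#1-4 the sum was lowest on day 3 (85.1 CPM), where Nox4 was highest, and highest on day 14 (183), where Nox4 was lowest. In WT#20D-17 both were highest on day 7, but on day 14 the sum was still 3579 CPM while Nox4 was near its day 0 level. On day 0 the sum of WT#20D-17 was 45.3 CPM, below the 95.8 of WT#1-4, although Nox4 was higher in WT#20D-17. The part of such cells in the Nox4 difference between the wild type lines was not tested.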

How the data were processed

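Stranded mRNA libraries were sequenced, and per the labels' processing notes and the study's methods the authors trimmed reads with fastx_toolkit, aligned them to mm10 (GRCm38) with STAR 2.6.0c and ran RSEM 1.3.1 to obtain expected counts per gene. The deposited table holds these expected counts for 55573 genes and 20 libraries, without normalization. Whether RSEM used the strand is not given in the sources used here. Of all values, 9.92% had decimals, and they were rounded here.

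Symbols, positions and transcript lengths were taken from GENCODE M21, in which 55394 identifiers were found. Pooled comparisons used the exact test of edgeR 4.0.16 (R 4.3.3) with TMM factors over 33860 genes at an FDR under 0.01, and treated the days of a line as replicates. The line as the unit used the quasi-likelihood test on counts summed per line. Day courses used that test with upper quartile factors, the edgeR expression filter and the line as a block, because each line was sampled on all 5 days. SE came from quasi-likelihood fits, with the day as a block where lines of 1 genotype were compared. DESeq2 1.42.0, other factors and filters, blocks and leaving out each line or day were alternatives. Per kilobase values used the longest protein-coding transcript. The exact test of Nox4-/- against a wild type line, the test with the line as the unit and the day fits were run on simulated counts. There only genes with higher counts were changed, and lines of a genotype did not differ. The alternatives and the comparisons between lines of a genotype were not simulated. Wilson and exact intervals are at 95% and cover counting error only, with 3 counts as the floor. Adjusted p-values are Benjamini-Hochberg values over all genes of a fit. Nothing says that the libraries came from separate cultures beyond their lines and days, so p-values measure the spread between these libraries.

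The members and lists were chosen with earlier results of these data known. The text names the 9 members, 17 further oxidase genes, the 3 nearest protein-coding genes with a nonzero count on each side of Nox4, the 3 most similar genes for Nox4, Cyba and Poldip2, and markers of phagocytes, fibroblasts and smooth muscle, endothelium and pluripotent cells. The 6 endothelial markers summed to 319 to 474 CPM in WT#1-4, 19.9 to 199 in WT#20D-17, 158 to 264 in Nox4-/- #5-8 and 169 to 303 in #5-23. Tek, with a mean of 312 CPM in WT#1-4 and 21.7 in WT#20D-17, led this sum outside WT#20D-17. The markers did not go the same way. Tek, Pecam1 and Esam had their lowest mean in WT#20D-17, while Kdr, Cdh5 and Emcn had their highest there. The mean of Kdr was 0.903 CPM in WT#1-4 and 28.7 in WT#20D-17. One further planned gene is not reported here. The last sampling day is 14 in the titles and the study's text but 10 in the labels' protocol, and 14 was used.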

Additional observations from a re-analysis of the deposited data

Results flagged for a closer look

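Values are log2 differences with adjusted p from edgeR's exact test, and a difference between the wild type lines is also a difference between the 2 genotype comparisons, since these share the Nox4-/- libraries. For 11 named genes the change in Nox4-/- cells differed with the wild type line, among 9 members, 17 wider list genes and 6 neighbours. Among all genes, 9.96% were called higher and 7.78% lower in WT#20D-17 than in WT#1-4. Among the members, the difference of WT#20D-17 against WT#1-4 was 3.53 for Nox4, 3.30 for Cyba and -1.63 for Poldip2 (adjusted p = 1.79e-07, 2.22e-10 and 2.17e-09). For Cyba the 2 comparisons had opposite directions. In the wider list it was 4.48 for Duox2, 2.11 for Sh3pxd2b, 2.87 for Hvcn1 and 1.16 for Prex1 (adjusted p = 0.00320, 0.00167, 0.00361 and 0.000741). Beside Nox4 it was 4.03 for Folh1, 3.91 for Vmn2r79, -5.56 for Grm5 and 3.45 for Ctsc (adjusted p = 9.58e-05, 0.00317, 0.000206 and 8.23e-23). Values of Duox2, Folh1, Vmn2r79 and Grm5 rest on at most 1 count per library in the lower line and depend on the prior count. The 2 Nox4-/- lines differed in Rac3 by -1.52 for #5-23 against #5-8 (adjusted p = 9.72e-05). The cause of these differences between lines was not tested.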

How the results depend on the processing

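Of 509 values of members under alternatives, 472 kept their direction and side of the threshold, 22 lost a call, 2 gained one and 13 changed sign. Nox4 was called under each alternative of both pooled comparisons and between the wild type lines, as was Poldip2 against WT#20D-17. No change of sign had an adjusted p under 0.01. They were Nox1 when a line or day was left out (-0.52 to 0.20 against WT#1-4, -0.67 to 0.015 against WT#20D-17, -0.60 to 0.069 with the line as the unit, -0.029 to 0.32 between the wild type lines), Noxo1 with the line as the unit (-0.0080 with DESeq2, -0.0051 with the expression filter, -0.23 to 0.31 without 1 line) and between the Nox4-/- lines (-0.60 to 0.047 without 1 day), Cyba with the line as the unit (1.69 without WT#20D-17, -1.64 without WT#1-4), Ncf4 between the wild type lines (-0.63 to 1.38 without 1 day) and Poldip2 between the Nox4-/- lines (-0.021 with upper quartile factors).

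The number of all genes called moved further. Against WT#1-4 it was 1903, 1228 with the quasi-likelihood test and 1114 (without day 7) to 1994 when a line or day was left out. With the line as the unit it was 0, 59 with the exact test, 811 with DESeq2 and 0 to 83 without 1 line (83 without WT#1-4). Between the Nox4-/- lines it was 740, 2135 with the day as a replicate block, 1171 with DESeq2 and 272 (without day 5) to 950 without 1 day. The day course in wild type lines gave 727 genes, 4 with no replicate block, 1514 without the expression filter, 3155 with DESeq2 and 0 to 2116 without 1 line. That in Nox4-/- lines gave 443, 3, 1249, 2967 and 0 to 2344. The interaction gave 2 genes, 0 with no replicate block, 196 with DESeq2 and 0 to 675 without 1 line. Both day courses fell to 0 without either Nox4-/- line and were highest without WT#1-4 (2116, wild type) or WT#20D-17 (2344, Nox4-/-). The cause was not tested. With 1 library per line and day, a difference from a single line on a single day has no replicate, and members with under about 10 counts allow no call of small changes.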
